A study of Mus musculus with 9 samples.

Results

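The genes described here are 35 genes of sterol and fatty acid synthesis together with the SREBP transcription factors that govern them, picked by symbol from the 48526 genes of the count table. The list was chosen with earlier results of these data known, so it is not independent of the values compared below. All 35 were found and all 35 passed the filter on low counts, which 18858 genes passed. They comprise 4 genes of regulation and sterol sensing, 7 of the mevalonate and isoprenoid steps, 11 of the steps from squalene to cholesterol, 6 that supply or use acetyl-CoA and NADPH for palmitate, and 7 of desaturation, elongation and lipid remodelling. The RNA came from NSCs of the SEZ of adult mice, grown as neurospheres from C57BL/6J animals in medium with EGF and FGF. Cells were taken undifferentiated (0 h) or 1 h and 6 h after differentiation had been induced by removing EGF, keeping FGF and providing an adhesive substrate, and each time point had 3 replicates. All 9 libraries come from the same kind of wild-type culture. Cells that the study fixed soon after induction had first been plated in medium with both factors, and the sources do not say whether this was also done for the RNA-seq cultures or whether the 0 h cells were attached.

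SREBPs are made as precursors held in the endoplasmic reticulum by SCAP and the INSIG proteins while sterols are plentiful. When sterols fall they move to the Golgi, are cut, and enter the nucleus, where SREBP2 (encoded by Srebf2) is best known for genes of cholesterol synthesis and SREBP1 (encoded by Srebf1) for genes of fatty acid synthesis. Neural cells make most of their own cholesterol, since plasma lipoproteins do not cross the blood-brain barrier. SREBPs bind sterol elements beside sites for NF-Y (CCAAT) and SP1 (GC boxes) in the promoters of their target genes.

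RefSeq windows from 250 bases before to 50 bases after a start site, on GRCm38.p6, were matched for 28 of the 35 genes. The windows were searched on both strands for CCAAT, for GGGCGG and for the sterol element TCACNCCAC, with a match on each strand counted separately. CCAAT was found for 23 of the 28 genes (82.1%), against 42.5% of the tested genes with a window and 41.1% of all genes with a window. GGGCGG was also found for 23 of the 28 (82.1%), against 66.1% and 38.2%. Both stood in 1 window for 19 of the 28 (67.9%), against 25.7% and 14.5%. The exact sterol element was found for 1 of the 28 (3.57%), Hmgcs1, against 1.43% and 1.44%. The median GC content was 62.5% for these genes, 60.3% for the tested genes and 52.7% for all genes. The upstream stretches of 6 genes are shown, cut where a first exon begins, chosen after their values were seen so that each role has an example. Capitals mark CCAAT and GGGCGG on either strand, so that ATTGG and CCGCCC are the same letters read from the other strand, and in Hmgcs1 also the sterol element. They lie at chr5:28071162-28071362 (Insig1, plus strand), chr13:119690101-119690350 (Hmgcs1, plus), chr8:122443423-122443672 (Mvd, minus), chr10:76531355-76531587 (Lss, plus), chr11:120824548-120824797 (Fasn, minus) and chr15:84167566-84167815 (Pnpla3, plus), each written 5′ to 3′ on the strand of its gene.
Insig1: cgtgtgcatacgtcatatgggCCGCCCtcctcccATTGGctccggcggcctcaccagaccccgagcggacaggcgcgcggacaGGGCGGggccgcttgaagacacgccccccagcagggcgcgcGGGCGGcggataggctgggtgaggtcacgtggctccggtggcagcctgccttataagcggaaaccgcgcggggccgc
Hmgcs1: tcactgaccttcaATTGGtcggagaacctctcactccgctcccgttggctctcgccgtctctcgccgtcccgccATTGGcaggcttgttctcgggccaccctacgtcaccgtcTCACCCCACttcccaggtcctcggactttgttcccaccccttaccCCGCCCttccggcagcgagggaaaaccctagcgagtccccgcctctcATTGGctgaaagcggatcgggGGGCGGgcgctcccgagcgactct
Mvd: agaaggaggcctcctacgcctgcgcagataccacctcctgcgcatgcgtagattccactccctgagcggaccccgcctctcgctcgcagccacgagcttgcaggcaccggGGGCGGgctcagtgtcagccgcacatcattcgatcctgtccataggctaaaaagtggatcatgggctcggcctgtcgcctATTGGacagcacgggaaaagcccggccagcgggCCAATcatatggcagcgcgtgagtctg
Lss: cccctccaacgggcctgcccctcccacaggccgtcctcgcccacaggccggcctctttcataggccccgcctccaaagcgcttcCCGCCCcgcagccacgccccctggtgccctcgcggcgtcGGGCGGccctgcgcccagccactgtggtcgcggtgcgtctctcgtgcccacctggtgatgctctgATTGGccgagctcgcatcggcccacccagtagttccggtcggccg
Fasn: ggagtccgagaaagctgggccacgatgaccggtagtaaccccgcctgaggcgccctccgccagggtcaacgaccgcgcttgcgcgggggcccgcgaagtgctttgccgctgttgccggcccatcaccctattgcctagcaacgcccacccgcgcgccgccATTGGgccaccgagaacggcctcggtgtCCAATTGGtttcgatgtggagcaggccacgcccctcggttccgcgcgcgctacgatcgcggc
Pnpla3: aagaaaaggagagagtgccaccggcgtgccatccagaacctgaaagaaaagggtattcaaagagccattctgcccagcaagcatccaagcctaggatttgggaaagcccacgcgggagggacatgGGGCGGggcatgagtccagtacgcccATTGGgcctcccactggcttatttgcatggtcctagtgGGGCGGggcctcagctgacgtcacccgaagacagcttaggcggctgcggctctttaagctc
The stretch of Fasn holds 3 CCAAT matches, a pair of which overlap in a palindrome, and no GGGCGG. That of Hmgcs1 holds 3 CCAAT and 2 GGGCGG matches, and that of Pnpla3 1 and 2. These matches describe letters and not bound sites.

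The libraries held between 65871454 and 105592597 counts, their TMM scaling factors were between 0.97 and 1.02, and levels are given as CPM with these scaled library sizes as totals. The least abundant of the 35 genes still had at least 214 counts in each library. Adjusted p-values are from the quasi-likelihood test of edgeR with Benjamini-Hochberg adjustment over the 18858 tested genes, with 0.05 as the threshold, and SE is the standard error of the log2 value. The test without further terms is the main one. Libraries with the same replicate number deviated together, so a blocked value, from the same test with a term for that number, is given where it changes a call. The main test leaves this pairing out, so differences between replicate numbers enter its spread. Its common coefficient of variation between replicates was 0.28, against 0.06 with the block. The sources do not say what libraries of the same number share, nor that replicates were separate cultures, so the p-values measure the spread between these samples. The comparisons of 1 h and of 6 h with 0 h share the 0 h libraries.

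At 6 h the genes of sterol and fatty acid synthesis were higher than at 0 h as a body. Of the 35 genes, 14 rose and 0 fell in the main test, where 1.46% of all tested genes were called higher and 0.955% lower. With the replicate block 35 of 35 rose, where 17.4% of all tested genes were called higher and 17.5% lower. DESeq2 without the block called 27 of the 35 higher. The others were Srebf1, Srebf2, Idi1, Tm7sf2, Hsd17b7, Acaca, Scd2 and Me1. Where a gene is said below to have passed with the block only, this refers to the edgeR fits. All 35 had a positive log2 fold change, where 49.5% of tested genes did. The median log2 fold change of the 35 was 0.82, with a range from 0.13 (Me1) to 2.50 (Pnpla3), and the median of all tested genes was -0.00. All 35 were higher at 6 h in 3 of 3 same-numbered replicates, which held for 31.5% of tested genes. In 30 of 35 every 6 h library was above every 0 h library, which held for 12.8% of tested genes. The groups overlapped in Srebf1, Idi1, Tm7sf2, Hsd17b7 and Me1. The main count depended on single libraries. It was 3 when replicate 1 or replicate 2 of 0 h or replicate 1 of 6 h was omitted, 4 when replicate 3 of 6 h was, 6 when replicate 3 of 0 h or replicate 1 of 1 h was, and 7 when replicate 2 of 6 h was. Insig1, Nsdhl and Pnpla3 were called in all 9 fits with a library omitted. The share of all tested genes called was counted for the main and the blocked fit only, here and below. Whether calls were lost among all genes alike was therefore not tested. With the block and a replicate number left out the count was 33 to 35.

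**Figure D1:**
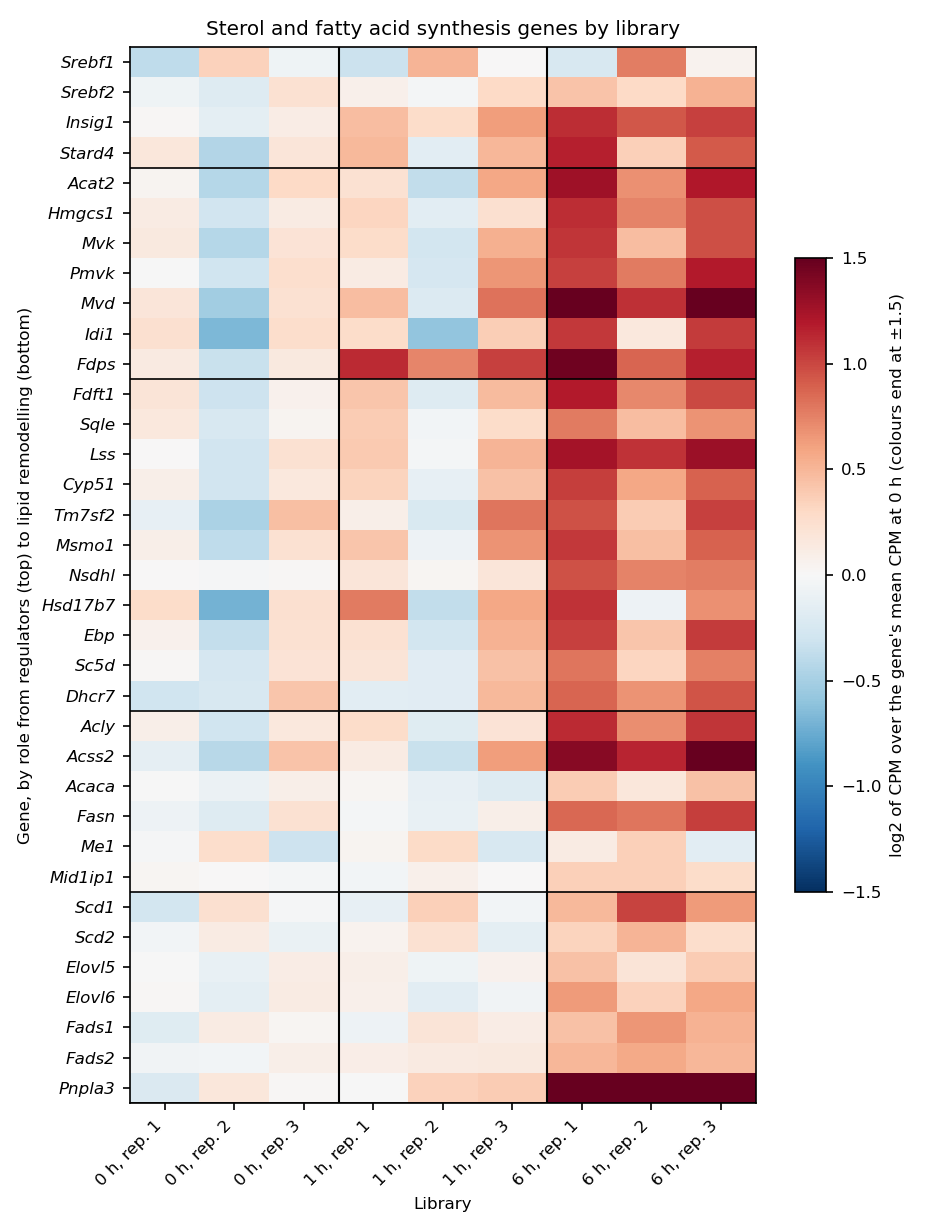
Heat map of the 35 genes (rows, grouped by role with black lines) in the 9 libraries (columns, grouped by time point); colour is the log2 of the library's CPM over the gene's mean CPM at 0 h and ends at ±1.5. The 6 h columns are red in nearly every row, Pnpla3 (mean 3.43 CPM at 0 h and 19.4 CPM at 6 h) is at the end of the scale, and replicate 2 is paler or bluer than its neighbours in most sterol rows.

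The summed level of the 35 genes was 13294, 13267 and 14009 CPM in the 3 libraries at 0 h, 14689, 14425 and 14590.0 CPM at 1 h, and 21486, 20741 and 21034 CPM at 6 h. The 3 time points did not overlap, and the 6 h sum was 1.56 times the 0 h sum. Scd2, a stearoyl-CoA desaturase, held more of this sum than any other of the genes, and without it the mean sum was 8571 CPM at 0 h and 14689 CPM at 6 h, a ratio of 1.71. By role, the ratio of 6 h to 0 h was 1.97 for the mevalonate steps, 1.79 for acetyl-CoA and palmitate, 1.78 for squalene to cholesterol, 1.52 for the regulators and 1.36 for desaturation and remodelling. Such sums are weighted to abundant genes. At 0 h Hmgcs1 held a mean of 1091 of the 1482 CPM of the mevalonate steps. Scd2 held 4952 of the 7000 CPM of desaturation and remodelling.

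**Figure D2:**
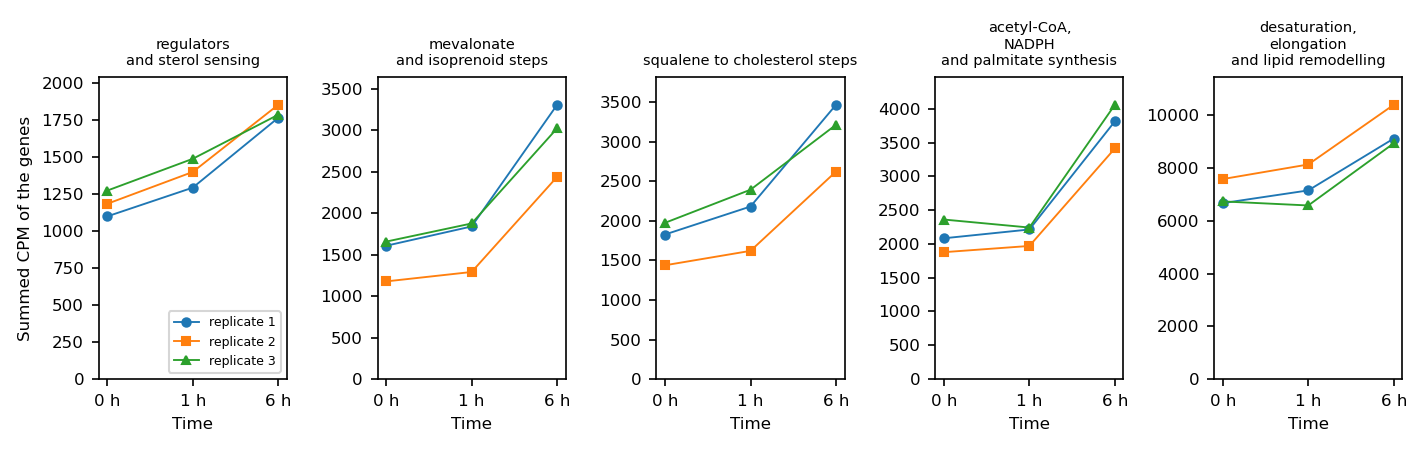
Summed CPM of the genes of each role (vertical axes, from 0, on a scale of their own in each panel) by time point, with a line for each replicate number. Every line is highest at 6 h, and replicate 2 is lowest in the mevalonate and squalene panels and highest in the panel of desaturation and remodelling.

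The regulators differed widely in how far they moved. Srebf2 was at 334, 305 and 412 CPM at 0 h, 369, 345 and 430.1 CPM at 1 h, and 471, 429.6 and 502 CPM at 6 h. All 6 h libraries were above all 0 h libraries, and the log2 fold change of 0.42 (SE 0.13) passed the threshold only with the block (edgeR adjusted p = 0.142, blocked 5e-05). Srebf1 was at 304, 506 and 379.7 CPM at 0 h and 335, 675 and 412 CPM at 6 h. Its replicates lay further apart than its time points, with replicate 2 the highest at each time, and its log2 fold change of 0.26 (SE 0.31) again passed only with the block (edgeR adjusted p = 0.761, blocked 0.0097). Without replicate number 1, 2 or 3 in turn, Srebf1 kept its blocked call in 2 of 3 fits, with an adjusted p of up to 0.181. The counts are per gene, so the transcripts of Srebf1 that start at its alternative promoters were not separated.

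Insig1, which encodes the sterol-dependent anchor of SREBP in the endoplasmic reticulum and is itself an SREBP target, lies at chr5:28071363-28078662. It was at 306, 273 and 327 CPM at 0 h, 417, 366 and 465 CPM at 1 h, and 653, 574 and 614 CPM at 6 h. No library of a later time overlapped an earlier one. It rose 2.03-fold from 0 h to 6 h, a log2 fold change of 1.02 (SE 0.11, edgeR adjusted p = 0.00714). Stard4, a soluble carrier of cholesterol between membranes, was at 155, 101 and 156 CPM at 0 h and 308, 177 and 260.5 CPM at 6 h. These ranges did not overlap, although 6 h replicate 2 was close to the upper 0 h libraries, and the log2 fold change of 0.85 passed with the block only (edgeR adjusted p = 0.135, blocked 3e-07).

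The mevalonate genes had the highest median log2 fold change of the 5 roles at 6 h, 1.01, and 3 of 7 rose in the main test and 7 of 7 with the block. Hmgcs1, the synthase that commits acetyl units to the pathway, was at 1185, 897 and 1191 CPM at 0 h and 2359, 1830.5 and 2126 CPM at 6 h. Its log2 fold change was 0.95 (SE 0.17, edgeR adjusted p = 0.032), and the groups were far apart. Mvd, the mevalonate diphosphate decarboxylase, was at 61.5, 37.8 and 63.6 CPM at 0 h and 201, 116 and 167 CPM at 6 h. Its rise of 1.57 on the log2 scale (SE 0.31, edgeR adjusted p = 0.0437) was the largest among the sterol genes. Both calls rested on several libraries, since the adjusted p of Hmgcs1 went up to 0.123 and that of Mvd up to 0.149 when a library was left out, and each was kept in 2 of 9 such fits.

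Acat2, Mvk, Pmvk and Idi1, which make acetoacetyl-CoA, phosphorylate mevalonate in succession and isomerise the product, had log2 fold changes between 0.81 and 1.08 at 6 h. In edgeR each passed with the block only, while DESeq2 without the block called Acat2, Mvk and Pmvk and not Idi1. Acat2 was at 138, 99.8 and 166 CPM at 0 h and 326, 217 and 311 CPM at 6 h. Idi1 was at 98.3, 52.2 and 100.1 CPM at 0 h and 174, 93.1 and 173 CPM at 6 h, so that 6 h replicate 2 was below 2 of the 0 h libraries. Within each replicate number Idi1 was nonetheless higher at 6 h, with a blocked log2 fold change of 0.82 (SE 0.05, edgeR adjusted p = 8.2e-08). Fdps, farnesyl diphosphate synthase, was at 8.21, 5.91 and 8.25 CPM at 0 h, 16.2, 12.4 and 15.2 CPM at 1 h, and 20.5, 13.6 and 16.7 CPM at 6 h. It was the only mevalonate gene with all 1 h libraries above all 0 h libraries, and at 6 h its log2 fold change was 1.19 (SE 0.20, edgeR adjusted p = 0.0282). Fdps kept this 6 h call in 3 of 9 fits with a library omitted, with an edgeR adjusted p of up to 0.106. Per kilobase of exon it had the lowest level of the 35 genes, 1.77 CPM at 0 h, and its exons overlap those of Gm43738 on the same strand, so its reads may be undercounted and its values are uncertain.

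From squalene to cholesterol, 2 of 11 genes rose in the main test at 6 h and 11 of 11 with the block, with a median log2 fold change of 0.82. Nsdhl, a dehydrogenase that acts in the removal of methyl groups from the sterol ring, was at 132, 129 and 132 CPM at 0 h, 148, 133 and 149 CPM at 1 h, and 253, 219 and 222 CPM at 6 h. The replicates were tight and no time point overlapped another. Its log2 fold change at 6 h was 0.82 (SE 0.08, edgeR adjusted p = 0.0056). Lss, lanosterol synthase, was at 142, 115 and 165 CPM at 0 h and 335, 299 and 342 CPM at 6 h, a log2 fold change of 1.21 (SE 0.17, edgeR adjusted p = 0.016). Lss was called in 5 of the 9 fits with a library omitted, with an adjusted p of up to 0.0879.

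The other 9 genes of this stretch, Fdft1, Sqle, Cyp51, Tm7sf2, Msmo1, Hsd17b7, Ebp, Sc5d and Dhcr7, had log2 fold changes between 0.64 and 0.98 at 6 h. In edgeR they passed with the block only, while DESeq2 without the block called all of them except Tm7sf2 and Hsd17b7. Fdft1, squalene synthase, went from a mean of 155 CPM (SD 26.9, n = 3) to 305 CPM (SD 49.6, n = 3) by 6 h, and its edgeR adjusted p was 0.0514 (blocked 3e-07). Sqle, the squalene epoxidase that is a slow step of the pathway, was at 393, 299 and 363 CPM at 0 h and 603, 486 and 561 CPM at 6 h (edgeR adjusted p = 0.06, blocked 6.2e-07). In both genes the time points were apart. Dhcr7, which carries out a last reduction to cholesterol, was at 144, 150.2 and 237 CPM at 0 h and 323, 283 and 339 CPM at 6 h, and here replicate 3 alone was high at 0 h. Hsd17b7, a keto reductase of the same sequence, was at 89.7, 45.4 and 87.5 CPM at 0 h and 158, 70.7 and 119.8 CPM at 6 h, which overlap because replicate 2 was low at both times. Its blocked log2 fold change was 0.64 (SE 0.06, edgeR adjusted p = 8.6e-06).

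Of the 13 fatty acid genes, 8 rose in the main test at 6 h and 13 with the block, with a median log2 fold change of 0.53 against 0.85 for the 18 sterol enzymes (the mevalonate genes and those from squalene to cholesterol together). No test was made of this difference between groups of genes. Fasn, the fatty acid synthase, was at 1006, 924 and 1239.7 CPM at 0 h, 1035, 977 and 1119 CPM at 1 h, and 1912, 1841 and 2167 CPM at 6 h. The 0 h and 1 h values were mixed and the 6 h values stood clear of both. Its log2 fold change at 6 h was 0.90 (SE 0.12, edgeR adjusted p = 0.0159). Acly, which makes cytosolic acetyl-CoA from citrate, was at 579, 442 and 607 CPM at 0 h and 1179, 883 and 1143 CPM at 6 h, a log2 fold change of 0.98 (SE 0.17, edgeR adjusted p = 0.0339). Acss2, which makes it from acetate, was at 69.4, 57.1 and 103 CPM at 0 h and 197, 169 and 250.1 CPM at 6 h, a log2 fold change of 1.42 (SE 0.29, edgeR adjusted p = 0.0474). Of the 9 fits with a library omitted, Fasn was called in 5, Acly in 2 and Acss2 in 1. Their edgeR adjusted p went up to 0.0907, 0.126 and 0.181. The exons of Acss2 overlap those of Acss2os, Ggt7 and Gss on the other strand, so reads of the overlaps could not be assigned without a known strand setting. Gss rose by 0.81 on the log2 scale in the same comparison (edgeR adjusted p = 0.0128), and values of Acss2os and Ggt7 are not given here.

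Acaca, the acetyl-CoA carboxylase that supplies malonyl-CoA to Fasn, changed much less than Fasn. It was at 204, 194 and 218 CPM at 0 h, 210.1, 189 and 180.3 CPM at 1 h, and 268, 231 and 279 CPM at 6 h. The 6 h libraries lay above the rest, and the log2 fold change of 0.34 passed with the block only (edgeR adjusted p = 0.114, blocked 0.00139). Mid1ip1, which promotes the assembly of the carboxylase into active filaments, went from between 55.8 and 58.0 CPM at 0 h to between 68.8 and 73.3 CPM at 6 h. This is a small rise of 0.33 on the log2 scale between tight groups (SE 0.06, edgeR adjusted p = 0.0401). Mid1ip1 was called in 1 of 9 fits with a library omitted, with an edgeR adjusted p of up to 0.159. Me1, the malic enzyme that yields NADPH, was at 167, 203 and 136 CPM at 0 h and 184, 217 and 151 CPM at 6 h. It had the lowest log2 fold change of the 35, 0.13 (SE 0.19, edgeR adjusted p = 0.825, blocked 0.036), and its blocked call was kept in 1 of 3 fits without a replicate number.

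Pnpla3, which encodes a protein of lipid droplets that acts on triglycerides and retinyl esters, lies at chr15:84167837-84187236 and had the largest change of the 35. It was at 2.96, 3.88 and 3.47 CPM at 0 h, 3.42, 4.37 and 4.48 CPM at 1 h, and 20.2, 20.3 and 17.7 CPM at 6 h. The 0 h and 1 h libraries overlapped and the 6 h libraries were far above both, with a 5.64-fold rise (log2 2.50, SE 0.16, edgeR adjusted p = 0.00146). Its exons overlap those of Gm49513 on the same strand. Even at 6 h its level per kilobase, 12.5 CPM, was second lowest of the 35.

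Scd2 and Scd1, the desaturases that introduce the first double bond into saturated fatty acids, were the most and the third most abundant of the 35 genes per kilobase, at 906 and 152 CPM per kilobase at 0 h. Scd2 was at 4818, 5411 and 4626 CPM at 0 h and 6226, 7045 and 5923 CPM at 6 h, a log2 fold change of 0.37 (edgeR adjusted p = 0.157, blocked 0.00013). Scd1 was at 613, 881 and 735 CPM at 0 h and 1041, 1503 and 1161 CPM at 6 h, a log2 fold change of 0.73 (edgeR adjusted p = 0.0924, blocked 4.2e-07). Neither gene overlapped between 0 h and 6 h. They are close paralogues, so reads from shared sequence may have been left out or split.

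Among the elongases and the desaturases of polyunsaturated fatty acids, Elovl6, Fads1 and Fads2 rose by 0.53, 0.54 and 0.52 on the log2 scale at 6 h (edgeR adjusted p = 0.0459, 0.0454 and 0.0118). Fads2 was at 377, 382 and 415 CPM at 0 h, 420.3, 429 and 435 CPM at 1 h, and 554, 578 and 553 CPM at 6 h, and no time point overlapped another. Elovl6 was at 249.9, 225 and 269 CPM at 0 h and 386, 315 and 371 CPM at 6 h. The calls of Elovl6 and Fads1 were kept in 0 of the 9 fits with a library omitted, with an adjusted p of up to 0.164 for each. That of Fads2 was kept in 6 of 9, with an edgeR adjusted p of up to 0.0802. Elovl5 had a log2 fold change of 0.34 and passed with the block only (edgeR adjusted p = 0.0995, blocked 0.00017).

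**Figure D3:**
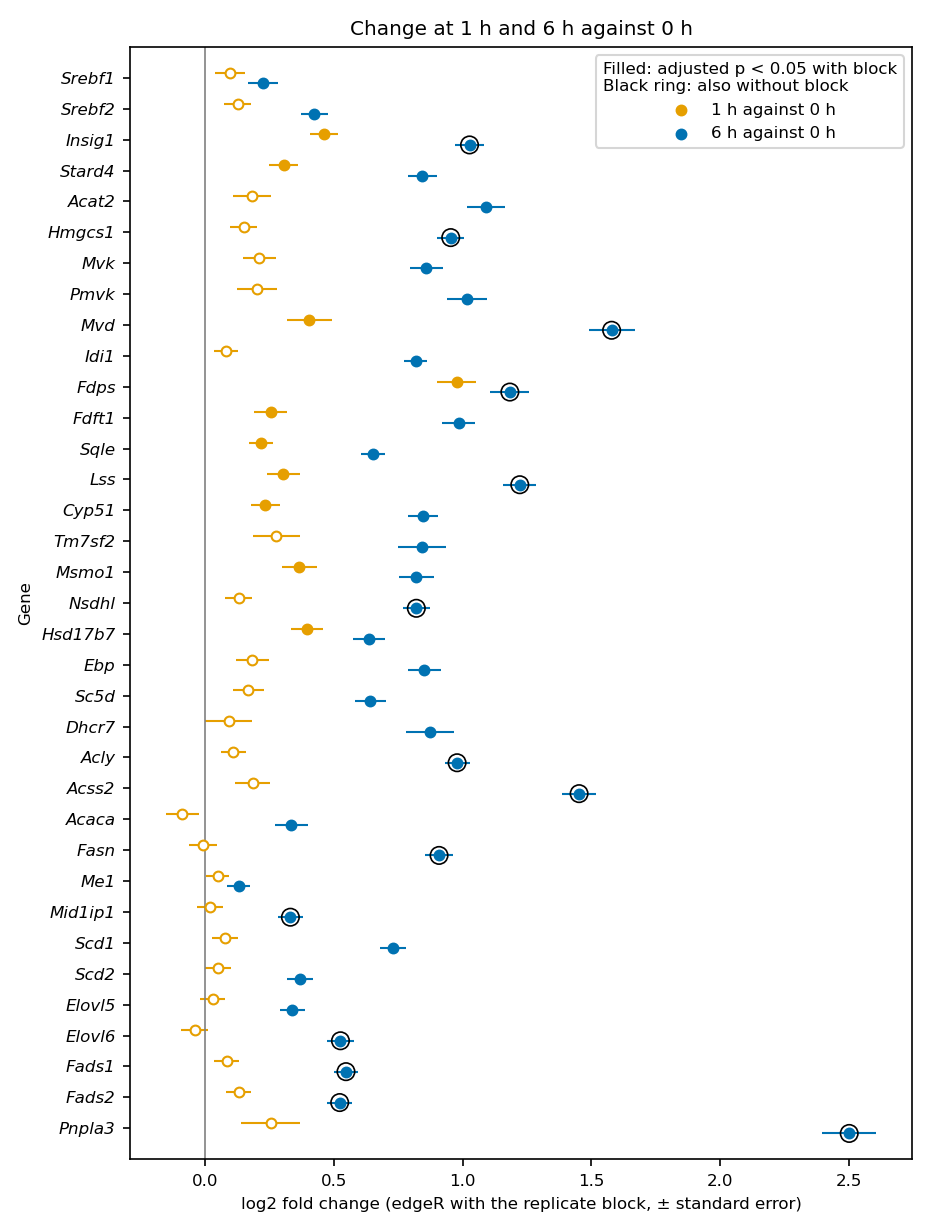
Blocked log2 fold change (points, horizontal axis) with its standard error (bars) for each of the 35 genes (rows) at 1 h (orange) and 6 h (blue) against 0 h; filled points have an adjusted p under 0.05 with the block and black rings mark those that also have it without. All 35 blue points are filled and right of 0, 14 have a ring, and the 10 filled orange points are all genes of regulation or of the sterol steps.

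At 1 h most of the changes were smaller than at 6 h. In the main test 0 of the 35 genes passed the threshold (2 had an unadjusted p under 0.05 and DESeq2 called 1, Fdps), where edgeR called 0.0424% of all tested genes higher and 0% lower. With the block 10 of 35 rose and 0 fell, where 1.36% of tested genes were called higher and 2.14% lower. These were Insig1 and Stard4 among the regulators, Mvd and Fdps among the mevalonate genes, and Fdft1, Sqle, Lss, Cyp51, Msmo1 and Hsd17b7 after squalene. Of the 13 fatty acid genes 0 were called, although the difference between the sterol and the fatty acid genes was not itself tested.

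The blocked log2 fold change of Fdps at 1 h was 0.98 (SE 0.08, edgeR adjusted p = 1e-05), and its level nearly doubled from a mean of 7.46 ± 1.34 CPM to 14.6 ± 2.00 CPM (SD, n = 3). These values of Fdps are uncertain, as said above, since its exons are shared with Gm43738 and its level per kilobase was the lowest. The blocked value of Insig1 was 0.46 (SE 0.06, edgeR adjusted p = 0.0005), while its main test gave an edgeR adjusted p of 0.612. Fdps and Insig1 stood clear of their 0 h libraries at 1 h, as did Nsdhl and Fads2, which passed neither test, so that 4 of 35 genes were apart where 3.3% of tested genes were. Hsd17b7 was at 127, 57.5 and 111 CPM at 1 h, and its blocked rise of 0.40 (SE 0.06, edgeR adjusted p = 0.0034) was seen within each number and not between the groups. Mvd was at 75.0, 47.1 and 95.4 CPM at 1 h and Lss at a mean of 174 ± 32.3 CPM (SD, n = 3), and both overlapped 0 h as groups (blocked log2 fold changes 0.40 and 0.30, edgeR adjusted p = 0.0237 and 0.0196). Msmo1, Stard4, Fdft1, Cyp51 and Sqle had blocked log2 fold changes of 0.37, 0.30, 0.25, 0.23 and 0.22. The weakest call was that of Fdft1, just under the threshold. When a replicate number was left out the blocked count was 6 without number 1, 3 without number 2 and 9 without number 3, and Insig1, Fdps and Hsd17b7 were called in 3 of 3 of these fits.

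Across the 35 genes the median log2 fold change at 1 h was 0.18, and 32 of 35 were above 0 where 50.3% of tested genes were. The values below 0 were those of Acaca (-0.09), Elovl6 (-0.04) and Fasn (-0.02), none of which passed. All 18 sterol enzymes were higher at 1 h in 3 of 3 replicates, and so were 6 of the 13 fatty acid genes, where 20.8% of tested genes were. The medians were 0.22 for the sterol enzymes and 0.06 for the fatty acid genes.

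From 1 h to 6 h, 9 of the 35 genes rose in the main test, where 1.48% of tested genes were called higher and 0.663% lower, and 33 of 35 with the block, where 18% were called higher and 17.5% lower. None of the 35 was called lower by either edgeR fit. The 9 were Insig1, Lss, Nsdhl, Acly, Fasn, Mid1ip1, Elovl6, Fads2 and Pnpla3, and Srebf1 and Me1 were the 2 without a blocked call. The median log2 fold change was 0.57, and 35 of 35 values were positive, where 49.5% of tested genes had one. Pnpla3 rose by 2.24 (SE 0.16, edgeR adjusted p = 0.00214) and Fasn by 0.92 (SE 0.12, edgeR adjusted p = 0.014), so that nearly the whole rise of both came after 1 h. The reverse held for Fdps, whose log2 fold change from 1 h to 6 h was 0.22 (SE 0.20, edgeR adjusted p = 0.645, blocked 0.0414), with overlapping libraries. Its exons shared with Gm43738 make this timing uncertain. All 35 genes were higher in 3 of 3 replicates at 6 h than at 1 h, where 29.4% of tested genes were, and in 23 of 35 the groups were apart, where 12.1% of tested genes were. The main count was between 1 and 4 in the 9 fits without a library and was 1 without 1 h replicate 1.

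**Figure D4:**
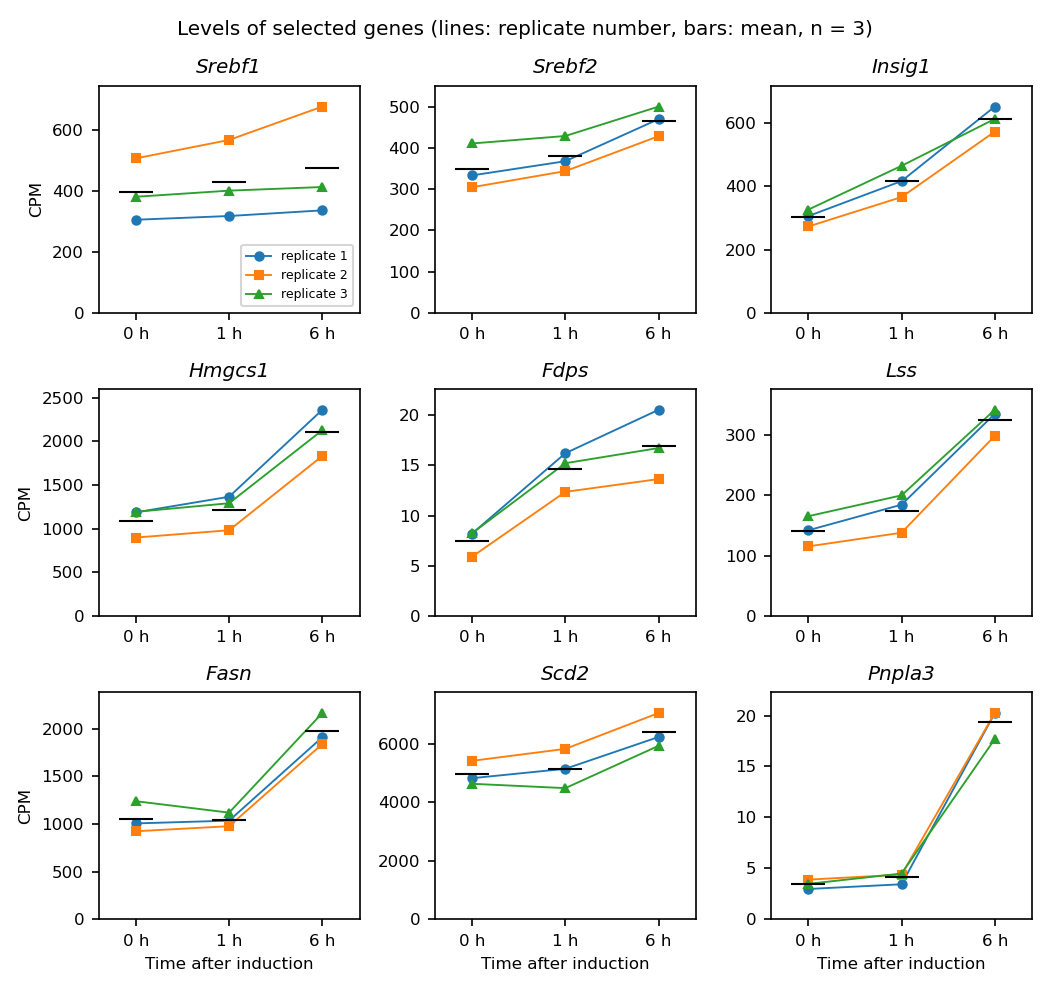
CPM (vertical axes, from 0) of 9 of the genes by time point, with a line for each replicate number and a black bar for the mean of 3 replicates. Insig1 and Fdps are higher by 1 h, Fasn and Pnpla3 only at 6 h, and the 3 lines of Srebf1 lie further apart than its time points.

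Replicate 2 was the lowest of the 3 libraries in 26 of 35 genes at 0 h, 26 at 1 h and 27 at 6 h, and in 25 genes at all 3 times. It was instead the highest at all times in Srebf1, Scd1, Scd2, Fads1 and Me1. These counts were not made over all tested genes, so they do not show a trait of the 35 alone. Over the count table as a whole, the chi-square per degree of freedom at 0 h was 122 and 114 between replicate 2 and the others, and 86.6 between replicates 1 and 3. The rise at 6 h was of like size in each number, with median log2 ratios over the 35 genes of 0.94, 0.82 and 0.73 for numbers 1, 2 and 3. At 1 h these medians were 0.17, 0.11 and 0.20.

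Other genes of the same pathways were taken from lists written with earlier results of these data known. Their counts stand beside the 1.46% and 0.955% of tested genes called higher and lower at 6 h in the main test, and the 17.4% and 17.5% with the block. The machinery that processes SREBPs showed 0 of 12 genes higher or lower in the main test, and with the block 2 higher and 3 lower, shares near those of all tested genes, with a median log2 fold change of -0.07. Scap, the escort of SREBPs, had a blocked log2 fold change of 0.23 and Sec24d, a coat protein of the vesicles that carry them, 0.30, while Mbtps2, the site-2 protease that releases them, had -0.33 and Rnf139, a ubiquitin ligase of the endoplasmic reticulum, -0.27, all with the block only. The isoprenoid branch, which takes farnesyl units away from sterols, had 0 of 8 called in the main test and with the block 0 higher and 3 lower (Pdss1 -0.32, Ggps1 -0.26 and Dhdds -0.17), with a median of -0.13.

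Of 23 tested genes for uptake, transport, storage and export of sterols (of 24 listed), 1 rose in the main test, and with the block 9 rose and 2 fell, with a median of 0.20. The 1 was Gramd1a, which moves sterol from the plasma membrane to the endoplasmic reticulum (log2 fold change 0.46, edgeR adjusted p = 0.016). Its relative Gramd1b (0.81), the receptor Lrp1 (0.51) and the lysosomal exporter Npc1 (0.33) rose with the block only, and Abca1, the cholesterol exporter, fell (-0.38). Of 25 genes of fatty acid and lipid handling, 5 rose and 0 fell in the main test, and with the block 13 rose and 4 fell, with a median of 0.25. The 5 were Acsl3, an acyl-CoA synthetase of lipid droplets (0.91), Pnpla2, a triglyceride lipase (0.65), Lpcat3, which remodels phospholipids (0.61), Elovl1, an elongase (0.53), and Tecr, a reductase of the elongation cycle (0.43), with edgeR adjusted p between 0.011 and 0.036. With the block only, Thrsp (blocked 0.90), Slc25a1, the mitochondrial citrate carrier (0.67), and Lpin1, a phosphatidate phosphatase (0.63), rose and Acsl1 fell (-0.51). Lpin1 had first fallen at 1 h with the block (-0.29), while Acsl3 (0.25) and Slc25a1 (0.27) had risen.

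Genes of fatty acid oxidation also counted 1 of 12 higher in the main test at 6 h, Ppara, a receptor that switches on this pathway (log2 fold change 0.92, edgeR adjusted p = 0.0339, from 2.20 CPM at 0 h). With the block 8 rose and 2 fell, with a median of 0.21. Among these Cpt1a, which admits fatty acids to mitochondria, fell (-0.33), and Pdk4 (0.75), Ppard (0.30) and Cpt1c (0.25) rose.

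Markers of the cell types the cultures could hold are given beside these changes. Of all tested genes at 6 h, the main test called 1.46% higher and 0.955% lower, and the block 17.4% and 17.5%. All 10 NSC markers were at 1 CPM or more, with summed levels from 5921 to 7208 CPM at 0 h and from 5414 to 6605 CPM at 6 h, and 2 of 10 were higher at 6 h in the main test and 5 higher and 2 lower with the block. Markers of oligodendrocyte progenitors, cells of a lineage with a high output of lipid, summed to between 609 and 780.1 CPM at 0 h, 614 and 708 CPM at 1 h, and 872 and 1044 CPM at 6 h, with 1 of 5 higher at 6 h in the main test and 5 of 5 with the block, while Sox10 and Gpr17 stayed under 1 CPM. Those of oligodendrocytes summed to between 48.7 and 84.8 CPM at 0 h and 66.3 and 118 CPM at 6 h. Mog, Mag, Mobp and Opalin were under 1 CPM, and with the block 3 of the 5 tested were higher and 1 lower. Astrocyte markers summed to between 695 and 953 CPM at 0 h and 896 and 1120 CPM at 6 h, with 2 of 6 higher and 1 lower with the block. Neuronal markers summed to between 964 and 1483 CPM at 0 h and between 1002 and 1567 CPM at 6 h, with 4 of 7 higher with the block and Dcx and Stmn2 under 1 CPM. The main test called 0 markers of oligodendrocytes, astrocytes or neurons at 6 h. All 6 microglial markers were under 1 CPM and endothelial markers summed to at most 4.24 CPM. Ependymal markers summed to between 45.6 and 87.1 CPM at 0 h and to at least 38.2 CPM at 6 h. Only 1 microglial, 2 endothelial and 2 ependymal markers passed the filter on low counts. In each of these lists 1 marker was lower with the block and 0 were called in the main test. The mitochondrial share of counts was 2.86% to 3.58%. The part of these markers in the changes of the synthesis genes was not tested, and in bulk RNA more cells of a type cannot be told apart from more RNA per cell.

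Exons of some of the 35 genes are shared with other annotated genes in GENCODE M21. On the same strand these are Srebf1 with Mir6922, Fdps with Gm43738, Tm7sf2 with Vps51, Scd2 with Mir5114 and Pnpla3 with Gm49513. On the other strand Srebf1, Hmgcs1, Idi1, Fdft1, Lss, Cyp51, Acss2, Elovl6, Me1 and Mid1ip1 overlap an antisense gene, and since the strand setting of the counting was not stated, reads from the overlaps cannot be told apart. Insig1, Nsdhl, Fasn, Acly, Mvd and Fads2 overlap no other annotated exon.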

How the data were processed

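RNA-seq was done on 9 samples of NSCs, 3 per time point, and groups and replicate numbers were taken from the labels. The authors deposited raw counts of reads per Ensembl gene, made from paired-end reads with STAR 2.5.3a on mm10 (GRCm38), and did not normalise them. The submitters' notes also list FastQC and DESeq2 1.22.1, and the strand setting is not given in the sources used here. Symbols and positions came from GENCODE M21, which held 48058 of the 48526 identifiers, and promoter windows from RefSeq. Library totals were 65871454 to 105592597 counts, and no pair of libraries was a duplicate (chi-square per degree of freedom of at least 13.6). Counting error was not compared with the spread between replicates.

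Counts were filtered with filterByExpr (minimum count 10, minimum total 15), scaled with TMM and fitted in R 4.3.3 with edgeR 4.0.16 (glmQLFit, glmQLFTest), all 9 libraries together and time point as the only factor. P-values were adjusted by Benjamini-Hochberg over 18858 genes. SE was derived from the F statistic, and ratios within a replicate number used CPM + 0.5. Python 3.11.15 was used for tables (pandas 2.3.3, numpy 2.4.6) and for drawing (matplotlib 3.10.9). After subtraction of group means, libraries with the same number correlated at 0.733 to 0.800 in 9 pairs and others at -0.462 to -0.314 in 18 pairs, so the replicate numbers in the labels, where 1, 2 and 3 go with the letters B, C and D of the titles, pair the samples. The fits were also run on simulated counts, with the spread of the blocked fit and changes planted at 6 h only. That run does not bear on calls at 1 h, and no result is drawn from it here.

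Alternatives were the replicate number as a block, DESeq2 1.42.0 with and without it, RLE size factors, library totals, no filter, a mean of at least 1 CPM, fits restricted to the 6 libraries of a comparison, a threshold of 0.01 and leaving out each library or replicate number. The block with RLE factors or library totals was tried later, with the data already seen. The 35 genes and all other lists were chosen with earlier results of these data known. All 35 genes are named. Those past the threshold in either edgeR fit could be given by library, and other pathway genes are named if past it without the block, or as the 4 with the largest change past it with the block only at 6 h. Genes of the isoprenoid branch past it are all named. Splicing was not analysed here.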

Additional observations from a re-analysis of the deposited data

How the results depend on the processing

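The direction of the median log2 fold change of the 35 genes was the same under each alternative. Leaving out single libraries gave medians from 0.11 to 0.32 at 1 h against 0 h, from 0.68 to 0.97 at 6 h against 0 h and from 0.48 to 0.71 at 6 h against 1 h. With the replicate block and a replicate number left out these were 0.15 to 0.21, 0.76 to 0.90 and 0.57 to 0.65. The number of the 35 genes called lower was 0 in all fits.

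At 1 h against 0 h, 0 genes were called higher in the main test, 10 with the replicate block in edgeR, 1 with DESeq2, 12 with DESeq2 and the block, 10 with the block and RLE factors and 8 with the block and library totals. The count was 0 in each fit without a library and 3 to 9 with the block when a replicate number was left out. At 6 h against 0 h, 14 were called in the main test, 35 with the block, 27 with DESeq2, 35 with DESeq2 and the block, 5 with only the 6 libraries compared, 3 at an adjusted p under 0.01, and 35 with the block and either other scaling. Leaving out a library gave 3 to 13, and leaving out a number with the block 33 to 35. At 6 h against 1 h the counts were 9 in the main test, 33 with the block, 20 with DESeq2, 32 with DESeq2 and the block, 1 with only the 6 libraries compared, 1 at an adjusted p under 0.01, 33 with the block and RLE factors and 34 with the block and library totals. Leaving out a library gave 1 to 4, the fewest without 1 h replicate 1, and leaving out a number with the block 31 to 34. Fits of 6 libraries have fewer residual degrees of freedom. The cause of the other shifts was not tested, and the share of all tested genes called was counted for the main and the blocked edgeR fit only.

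Of the 35 genes, 32 had a positive log2 fold change at 1 h in the main test, 26 without 1 h replicate 3 and 28 to 32 without any other single library. Leaving out a library or, with the block, a replicate number turned the sign of a value uncalled in the main test. This held for 16 genes at 1 h against 0 h, 2 at 6 h against 0 h and 3 at 6 h against 1 h. Srebf1 and Me1 at 6 h against 0 h and Hsd17b7 at 6 h against 1 h had a blocked call and turned only in fits without the block. A fit without a library leaves its replicate number incomplete. At 1 h the values without a library ranged from -0.168 to 0.32 for Idi1, -0.159 to 0.35 for Dhcr7, -0.0968 to 0.20 for Me1, -0.0875 to 0.46 for Acss2, -0.0873 to 0.22 for Scd1, -0.0574 to 0.58 for Tm7sf2, -0.0486 to 0.41 for Pmvk, -0.0456 to 0.15 for Scd2, -0.0386 to 0.41 for Acat2, -0.0228 to 0.0835 for Elovl5, -0.0192 to 0.0501 for Mid1ip1, -0.0149 to 0.23 for Acly, -0.104 to 0.0196 for Elovl6 and -0.101 to 0.11 for Fasn. With the replicate block, Acaca had 0.0053, Fasn 0.0658 and Elovl6 0.0257 without replicate 3, and Mid1ip1 -0.0113 without replicate 2. Srebf1 ranged from -0.15 to 0.33 at 1 h (negative without 0 h replicate 1, -0.05, or 1 h replicate 2, -0.15), from -0.081 to 0.48 at 6 h against 0 h (negative without 6 h replicate 2) and from -0.19 to 0.41 at 6 h against 1 h (negative without 1 h replicate 1, -0.03, or 6 h replicate 2, -0.19). Me1 ranged from -0.0067 to 0.28 at 6 h against 0 h (negative without 0 h replicate 3, or 6 h replicate 2, -0.0033) and from -0.0505 to 0.22 at 6 h against 1 h (negative without 6 h replicate 2, or 1 h replicate 3, -0.0475). Hsd17b7 ranged from -0.0503 to 0.50 at 6 h against 1 h (negative without 6 h replicate 1, or 1 h replicate 2, -0.033). Each of the 35 genes had at least 214 counts in each library.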
